A study of Mus musculus with 2 samples.

Results

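Cyp7a1, Cyp8b1, Abcc2 and Abcb11 were the 4 genes of bile acid synthesis and canalicular export among the 500 genes measured in mouse liver. They were chosen by name for these roles. Transcripts were measured by MERFISH, which images single RNA molecules by barcoded probes, in 2 liver sections of 10 µm thickness. The labels put both sections in 1 group, tagged 2d, as replicates 1 and 2, here called section 1 and section 2, and they give no genotype, age or treatment. The series' design text speaks of treated mice with liver metastases, which these labels do not mention, so no treatment was assigned and all comparisons are between places or cells within a section. Whether separate animals gave the sections is not labelled. Section enters the tests as a block, so level differences between the sections do not enter the p-values. The p-values thus cover only counting error and how differently a contrast comes out in each section, a variation that could have technical origins.

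Hepatocytes make bile acids from cholesterol and pump them across the canalicular membrane into bile. Cyp7a1 is the rate-limiting enzyme of the classical pathway, and Cyp8b1 is the sterol 12-alpha-hydroxylase that directs it to cholic acid. Abcb11 is the bile salt export pump, and Abcc2 (MRP2) exports conjugated organic anions such as bilirubin glucuronides. Liver lobules run from a portal side, marked by Cyp2f2, to the central vein, whose adjacent hepatocytes express glutamine synthetase (Glul), and Cyp7a1 is known as a pericentral gene.

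Promoter sequences from RefSeq (GRCm38.p6) are shown because the members are hepatocyte genes whose levels are set side by side below, and 3 of 4 members matched, all but Cyp7a1. Each run covers 250 bases before to 50 bases after the start site, at chr9:121916256-121916555 (minus strand) for Cyp8b1, chr19:43782058-43782357 (plus strand) for Abcc2 and chr2:69342567-69342866 (minus strand) for Abcb11.
Cyp8b1: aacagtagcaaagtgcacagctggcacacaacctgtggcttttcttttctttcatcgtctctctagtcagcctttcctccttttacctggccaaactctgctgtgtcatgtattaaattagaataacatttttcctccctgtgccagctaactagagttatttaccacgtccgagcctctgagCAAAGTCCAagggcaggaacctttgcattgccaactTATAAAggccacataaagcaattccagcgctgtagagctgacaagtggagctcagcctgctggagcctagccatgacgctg
Abcc2: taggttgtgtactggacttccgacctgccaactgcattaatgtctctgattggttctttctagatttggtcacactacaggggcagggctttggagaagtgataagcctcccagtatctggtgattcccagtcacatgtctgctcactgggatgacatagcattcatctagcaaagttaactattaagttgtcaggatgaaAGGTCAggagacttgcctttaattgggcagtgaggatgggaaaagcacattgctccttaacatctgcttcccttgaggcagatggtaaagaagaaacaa
Abcb11: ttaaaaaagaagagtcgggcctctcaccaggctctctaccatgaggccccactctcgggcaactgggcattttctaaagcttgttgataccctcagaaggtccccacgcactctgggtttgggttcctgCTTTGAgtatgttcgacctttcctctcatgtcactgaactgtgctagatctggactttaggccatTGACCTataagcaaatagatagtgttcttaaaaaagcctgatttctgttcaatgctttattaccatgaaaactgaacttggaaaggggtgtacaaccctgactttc
Capitals mark matches, on either strand, to the nuclear receptor half-site AGGTCA, the HNF4-type sequence CAAAGTCCA, the TATA box TATAAA and the Tcf-type core CTTTGA; no matches overlapped. The Cyp8b1 promoter held CAAAGTCCA, found in 0.475% of 32851 promoters, and TATAAA, found in 13.6%. The Abcc2 and Abcb11 promoters each held 1 AGGTCA, found in 16.3% of promoters, and Abcb11 also held CTTTGA, found in 16.0%. These matches describe letters in the window and were not tested for binding.

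Section 1 held 428386 gene counts in 26037 cells and section 2 held 475382 in 85929 cells, and no cell identifier was shared. Cells were kept at 10 or more gene counts and 50 or more cubic µm, which left 9209 and 16290. A kept cell was called hepatocyte-like when it held at least 3 counts of 8 hepatocyte markers (Hp, Fga, Fgb, F2, F9, Apob, Hnf4a, Cebpa), and more than 2 times the counts of all other classes' markers together. This gave 5396 and 11400 cells with a median of 34 and 17 counts. A further 353 and 360 kept cells met the minimum of 3 but missed the second condition by 1 marker count. Cells short of the minimum itself are not among them. The sections thus differ in depth per cell, and levels are given per 10000 gene counts with exact Poisson 95% intervals, which cover counting error only.

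All 4 members were detected in hepatocyte-like cells of both sections, and all 4 were higher in section 1. Cyp7a1 stood at 14.7 per 10000 in section 1 (389 counts) and 6.80 in section 2 (154 counts), a mean of 10.7 ± 5.56 (SD, n = 2). Cyp8b1 stood at 68.2 (1811 counts) and 52.6 (1191 counts), a mean of 60.4 ± 11.1 (SD, n = 2). Cyp8b1 was the member closest between the sections, at 1.30-fold. Abcc2 stood at 66.3 (1760 counts) and 18.3 (415 counts), a mean of 42.3 ± 33.9 (SD, n = 2). Abcb11 stood at 13.1 (347 counts) and 6.35 (144 counts), a mean of 9.72 ± 4.75 (SD, n = 2). Abcc2, the anion exporter, was the member farthest apart, at 3.62-fold, against 2.16-fold for Cyp7a1 and 2.06-fold for Abcb11. Among 169 genes with at least 100 counts in both sections, 5 were as far apart as Abcc2, itself included, 43 as Cyp7a1, 52 as Abcb11 and 124 as Cyp8b1. With 1 section on each side this gap has no replicate check, and depth, tissue and section cannot be told apart. Levels of different genes depend on their probes and are not ranked against each other. The 50 blank barcodes, which name no gene, give the background: their mean was 32.9 and 10.6 counts in hepatocyte-like cells. No blank reached any member in section 1, while 1 blank, with 178 counts, stood above Cyp7a1 and Abcb11 in section 2.

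In section 1 the members were concentrated in hepatocyte-like cells. At least 1 count of Cyp7a1 was found in 6.25% of hepatocyte-like cells of section 1, of Cyp8b1 in 23.9%, of Abcc2 in 22.6% and of Abcb11 in 5.75%. Erythroid-like cells, which should lack these genes, held Cyp7a1 in 1.60% of 313 cells, Cyp8b1 in 2.56%, Abcc2 in 2.88% and Abcb11 in 1.28%, at a median of 38 counts per cell against 34 in hepatocyte-like cells. All 4 shares were higher in hepatocyte-like cells at this like depth. In section 2 the shares in hepatocyte-like cells were 1.32% for Cyp7a1, 9.61% for Cyp8b1, 3.52% for Abcc2 and 1.24% for Abcb11, at a median of 17 counts. The 139 erythroid-like cells of section 2, at a median of 18 counts, held 0 counts of Cyp7a1, Cyp8b1 and Abcb11. The exact Clopper-Pearson 95% interval allows a share of up to 2.62% for each. Abcc2 was found in 1 cell, a share of 0.719% (exact Clopper-Pearson 95% interval 0.018% to 3.94%). The shares of Cyp7a1, Abcc2 and Abcb11 in hepatocyte-like cells lie under these limits, so for these 3 genes no difference from erythroid-like cells was detectable in section 2. Kept cells of no class held 51.8 Cyp8b1 counts per 10000 in section 2, near the 52.6 of hepatocyte-like cells, but 31.1 in section 1, against 68.2.

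**Figure D1:**
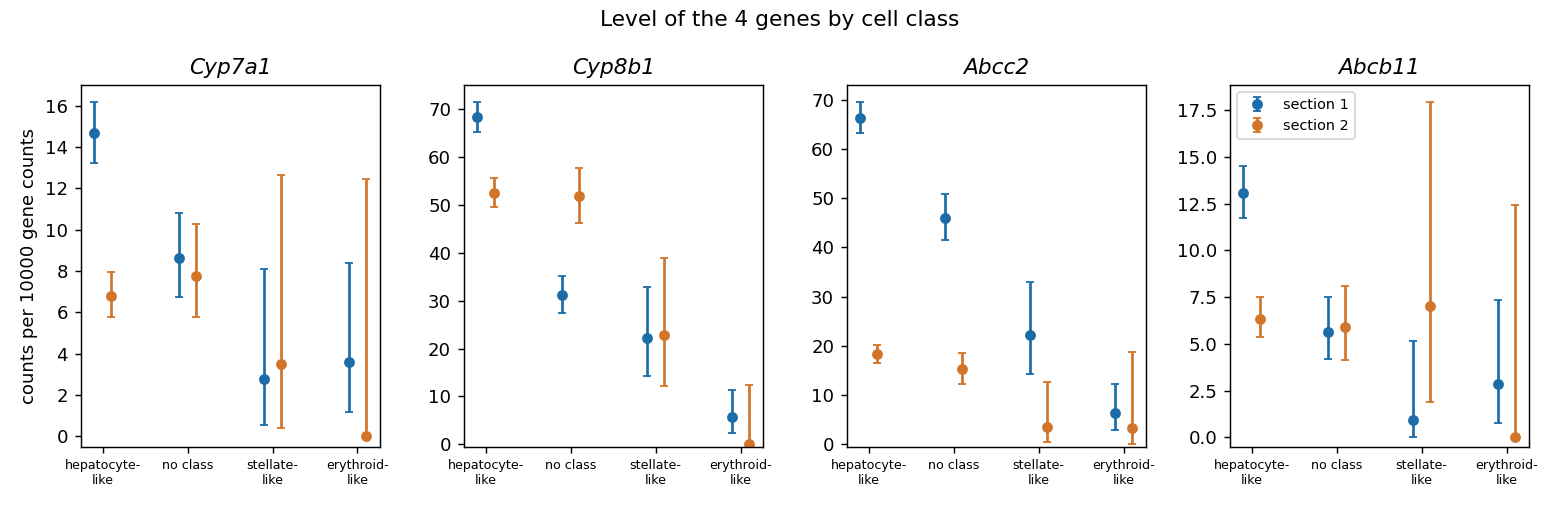
Counts per 10000 gene counts (vertical axis) of each member in 4 cell classes; points are single sections and bars exact Poisson 95% intervals. In section 1 hepatocyte-like cells are highest for every member, while in section 2 cells of no class lie within the intervals of hepatocyte-like cells for Cyp7a1, Cyp8b1 and Abcb11.

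Transcripts outside cell outlines made up 37.3% and 31.8% of Cyp7a1, 44.7% and 35.4% of Cyp8b1, 41.3% and 32.2% of Abcc2, and 35.4% and 34.3% of Abcb11 in sections 1 and 2. All genes together had 40.1% and 34.4% outside cells, so the members lay near the panel in both sections.

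The first comparison asked whether the members follow distance from Glul-high cells, those with a Glul count of at least 3, of which there were 162 in section 1 and 73 in section 2. Other hepatocyte-like cells were split in each section into 3 equal bins of distance, with a median of 51.9 µm in the nearest and 269 µm in the farthest bin of section 1, and 84.8 and 402 µm in section 2. Counts of each bin in each section were added up and tested with edgeR's quasi-likelihood test over 369 genes, with section as a block and Benjamini-Hochberg adjustment. Of these genes 0.542% passed: Cyp2e1, a pericentral cytochrome P450, was higher near Glul-high cells (log2 0.45, SE 0.11, edgeR adjusted p = 0.020), and Cyp2f2, a portal-side gene, was lower (log2 -0.65, SE 0.15, edgeR adjusted p = 0.020). Both calls were lost with DESeq2 and with 5 bins. None of the 4 members passed. From the nearest to the farthest bin Cyp2f2 had 26.2, 26.7 and 35.4 per 10000 in section 1, and 8.89, 22.9 and 17.9 in section 2. The farthest bin of section 2 was thus not the highest in this portal-side gene, and near minus far need not compare central with portal cells there.

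Cyp7a1 had 15.8, 13.8 and 12.7 counts per 10000 from the nearest to the farthest bin of section 1. In section 2 it had 9.14, 5.18 and 5.42. The nearest bin was highest in both sections, but the difference did not pass (log2 0.45, SE 0.20, edgeR adjusted p = 0.31). The Glul-high hepatocyte-like cells themselves, left out of the test, held 24.6 per 10000 in section 1 (95% interval 16.5 to 35.3, 29 counts) and 25.9 in section 2 (7.07 to 66.4, 4 counts). When cell volume replaced total counts as the scale, Cyp7a1 passed (log2 0.78, edgeR adjusted p = 0.016), beside 17 genes called (4.61%), all of them higher near Glul-high cells, and a shift of 0.27 in the median of all genes. Near cells also held more counts than far ones, with medians of 39 and 28 in section 1 and 18 and 16 in section 2. With starting cells of at least 5 Glul counts the Cyp7a1 value was 0.05.

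Cyp8b1 differed little between the nearest and the farthest bin, with 67.4, 72.9 and 65.2 per 10000 in section 1 and 52.2, 53.5 and 52.4 in section 2. Its near minus far difference was 0.00 on the log2 scale (95% interval -0.17 to 0.18, edgeR adjusted p = 0.99). Abcc2 had 66.5, 65.4 and 68.4 in section 1 and 18.7, 17.7 and 18.3 in section 2, a difference of -0.05 (95% interval -0.27 to 0.17, edgeR adjusted p = 0.93). Abcb11 had 10.5, 16.3 and 12.3 in section 1, highest in the middle bin, and 6.76, 5.87 and 6.26 in section 2, with no such peak. Its difference of -0.12 had a wide interval (-0.52 to 0.29, edgeR adjusted p = 0.92). In 6 finer bins of section 1, Abcb11 was lowest next to Glul-high cells, at 7.73 (5.39 to 10.8). It was highest there in bin 4, at 18.5 (14.6 to 23.0). In section 2 this order was not seen: bin 4 was the lowest, at 4.97 (2.94 to 7.85). The bin next to Glul-high cells stood at 6.60 (4.35 to 9.60) in section 2.

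**Figure D2:**
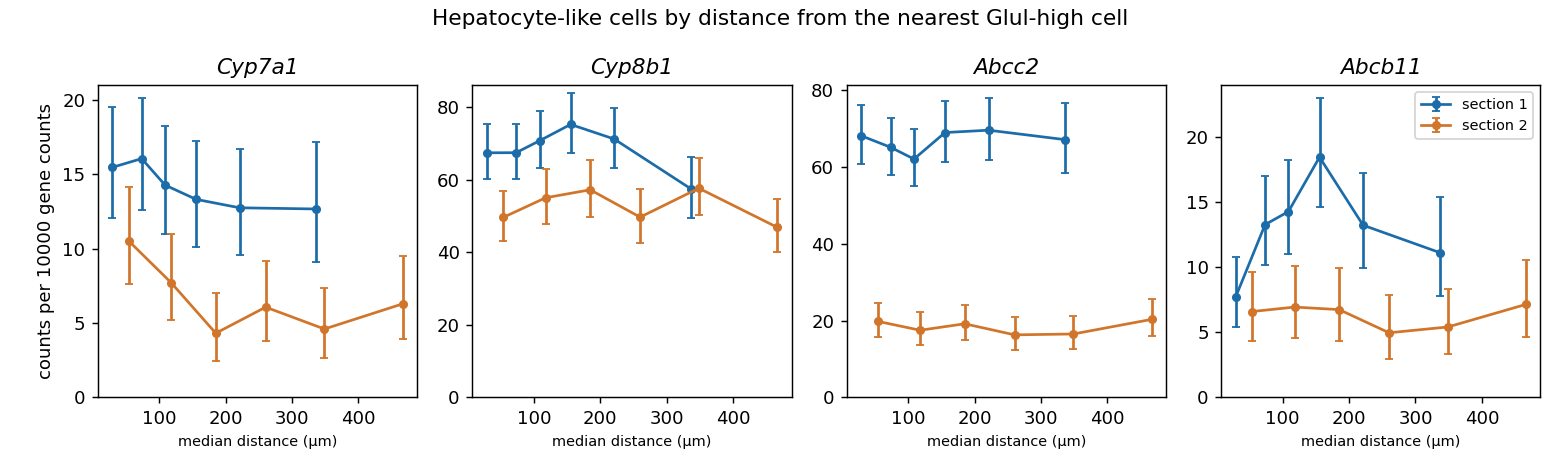
Counts per 10000 gene counts (vertical axis) against median distance from the nearest Glul-high cell (µm) in 6 bins of hepatocyte-like cells; bars are exact Poisson 95% intervals. Cyp7a1 is at 10.5 in the nearest bin of section 2, against 4.32 to 7.71 in the others, while in section 1 Cyp8b1 runs between 57.5 and 75.2 and Abcc2 between 62.0 and 69.5.

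Other genes of the pathway were few on the panel. Hnf4a and Cebpa, hepatocyte transcription factors that act on bile acid genes, did not pass by distance from Glul-high cells (log2 -0.12 and -0.03, SE 0.10 for each, edgeR adjusted p = 0.73 and 0.95). Neither passed by distance from Cyp2f2-high cells, in the rings or in cells with any of the members. Of genes known to follow the lobule, 1 of 8 pericentral ones (Cyp2e1) and 0 of 7 periportal ones passed near Glul-high cells. Their median log2 was 0.43 and -0.11, against -0.04 over all genes tested, a difference that was not tested. Likeness of pattern was described by Pearson's r over 12 points, 6 bins in each section centred on the section's mean, among 168 genes; the points of a section share its depth. The genes most like Cyp7a1 were Cyp2e1 (r = 0.82), Axin2 (0.78), a Wnt target, and Glul (0.77), which set the bins. Those most like Cyp8b1 were Ccnd1 (0.81), Ambp (0.78) and Epor (0.73). Abcc2 had no gene above 0.63 (Rai14), and Sord stood at 0.56. Abcb11 was most like Degs1 (0.72), Cald1 (0.66) and Fgl1 (0.66), the last with -0.27 within section 2.

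The second comparison used the portal side, as distance from cells with at least 3 Cyp2f2 counts. Only 41 such cells were found in section 1 and 5 in section 2, so the farthest bin of section 2 lay at a median of 2267 µm and the bins of the sections cover different distances. Of 368 genes tested 0% passed with edgeR, 35 had an unadjusted p under 0.05, and DESeq2 called 0.

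Abcc2 was lower near Cyp2f2-high cells in section 1, with 50.3, 77.4 and 76.7 per 10000 from near to far. In section 2 it had 19.1, 17.9 and 17.7. The sections went opposite ways and the difference did not pass (log2 -0.37, SE 0.17, edgeR adjusted p = 0.49). At fixed distances Abcc2 held 32.8 per 10000 under 50 µm and 75.8 at 150 µm or more in section 1 (63 and 1407 counts), and 16.8 and 18.3 in section 2 (5 and 382 counts). This setting, which called 5 of 368 genes (1.36%), gave -0.94 (SE 0.23, edgeR adjusted p = 0.0036), and cells within 300 µm, with 1.8% of genes called, gave -0.80 (SE 0.14, edgeR adjusted p = 0.0089). Section 2 adds few counts to either value, with 5 under 50 µm (95% interval 5.44 to 39.1 per 10000) and 24 in each end bin within 300 µm. Near cells were deeper here too, with medians of 46 and 32 counts at fixed distances in section 1; the part of depth was not tested.

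The remaining members did not pass. Abcb11 had 9.72, 13.8 and 16.9 in section 1 and 6.14, 6.60 and 6.23 in section 2 (log2 -0.56, SE 0.19, edgeR adjusted p = 0.28). Cyp7a1 had 11.7, 17.9 and 15.4 in section 1 and 8.11, 5.64 and 6.38 in section 2, with no shared order over these bins. At fixed distances Cyp7a1 was lower near Cyp2f2-high cells in both sections. In section 1 it had 9.90 under 50 µm and 16.5 at 150 µm or more. In section 2 it had 3.35, from 1 count, and 7.07 (log2 -0.65, SE 0.35, edgeR adjusted p = 0.49). Cells within 300 µm gave -0.81 (edgeR adjusted p = 0.30). The value was positive with all kept cells (0.12), 5 bins (0.068) and by volume (0.38). Cyp8b1 had 63.9, 78.9 and 62.7 in section 1 and 59.7, 51.4 and 44.8 in section 2.

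**Figure D3:**
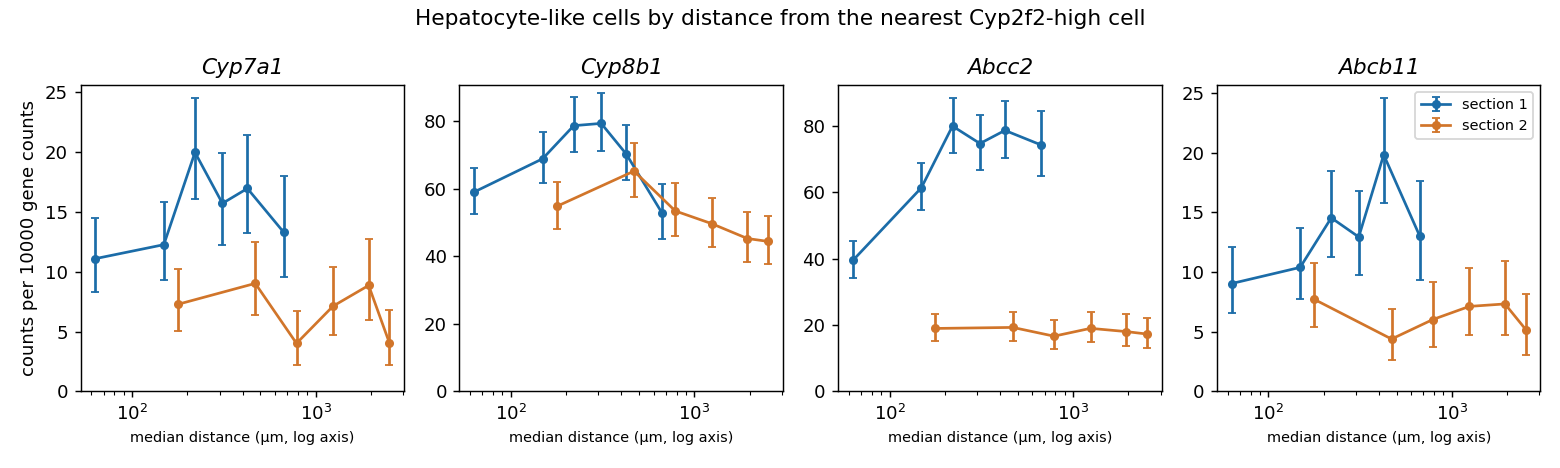
Counts per 10000 gene counts (vertical axis) against median distance from the nearest Cyp2f2-high cell (µm, log axis) in 6 bins; bars are exact Poisson 95% intervals. Abcc2 is at 39.5 in the nearest bin of section 1 and between 61.3 and 79.9 in the others, and runs between 16.6 and 19.3 in section 2.

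Position inside the cell was compared by ranking each hepatocyte-like cell's transcripts by distance from its centre and splitting them into 3 equal rings. Mean distances of transcripts from the centre were 2.68, 4.74 and 6.60 µm in section 1 and 3.19, 5.11 and 6.73 µm in section 2. Of 371 genes 17.8% passed with edgeR, 34 higher and 32 lower in the outer ring. None of the 4 members passed under this scaling. Without TMM, an edgeR step that rescales sums so that most genes do not move, 22.4% passed, 9 higher and 74 lower, and the median of all genes shifted to -0.30.

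Both exporters were lowest in the outer ring of both sections. Abcc2 had 80.1, 62.4 and 56.0 per 10000 from the inner to the outer ring of section 1, and 23.5, 16.4 and 14.5 in section 2. The outer minus inner difference was -0.27 (SE 0.12, edgeR adjusted p = 0.082), and -0.57 without TMM (edgeR adjusted p = 3.4e-04), which is again 0.27 below the median gene of that fit. Abcb11 had 16.1, 12.9 and 10.2 in section 1, and 6.79, 6.63 and 5.59 in section 2. Its difference was -0.23 (SE 0.19, edgeR adjusted p = 0.41), and -0.53 without TMM (edgeR adjusted p = 0.033). Both passed with positions taken relative to cell size, where 76 of 371 genes were called. Abcc2 stood there at -0.36 (edgeR adjusted p = 0.014) and Abcb11 at -0.61 (edgeR adjusted p = 0.022). Under a stricter hepatocyte-like rule, which called 11 of 217 genes, both passed at -0.56 and -1.06 (edgeR adjusted p = 0.040 and 0.033). Neither passed with cells of at least 20 counts, at -0.29 and -0.28 (edgeR adjusted p = 0.10 and 0.43). A split at 4 µm from the centre gave -0.32 and -0.35, and neither passed (edgeR adjusted p = 0.18 and 0.54). Within 4 µm of the centre lay 51.8% of Abcc2 transcripts in section 1 and 39.5% in section 2, and 51.9% and 41.0% of Abcb11. The transcripts of all genes pooled had 42.7% and 34.6% there. Cyp7a1 had 43.7% and 47.4% there, the highest share of the members in section 2, and Cyp8b1 had 44.0% and 37.7%. Among genes with at least 100 counts, 20 of 242 in section 1 and 40 of 180 in section 2 stood at or above Abcc2. These numbers were 18 and 27 for Abcb11, 143 and 6 for Cyp7a1, and 141 and 58 for Cyp8b1.

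By rings, the enzymes differed between the sections. Cyp8b1 had 67.4, 67.2 and 70.2 in section 1 and 58.1, 48.3 and 51.0 in section 2 (log2 0.25 with TMM, SE 0.10, edgeR adjusted p = 0.057; -0.05 without TMM). Cyp7a1 had 14.8, 13.5 and 15.7 in section 1, but 10.1, 5.97 and 4.05 in section 2, where it was lowest at the edge (log2 -0.06, edgeR adjusted p = 0.87). Markers of other cells moved with position as well. The 4 erythroid markers summed to 66.0 in the outer and 92.9 in the inner ring of section 1, and 31.0 and 44.4 in section 2, while blanks summed to 75.6 and 51.9, and 27.1 and 22.4; their part in the result was not tested.

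**Figure D4:**
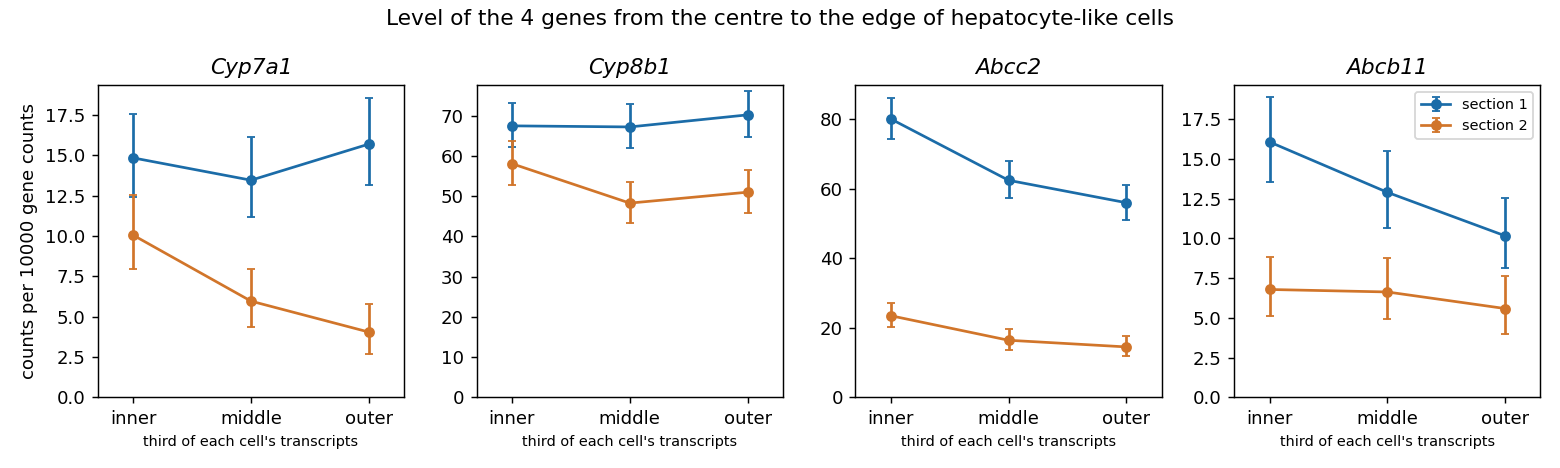
Counts per 10000 gene counts (vertical axis) of each member in the inner, middle and outer ring of transcripts of hepatocyte-like cells; bars are exact Poisson 95% intervals. Abcc2 stands at 56.0 in the outer and 80.1 in the inner ring of section 1, and at 14.5 and 23.5 in section 2.

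The last comparison asked whether the members lie in the same cells. Cells with both members of a pair were counted and divided by the number expected from cells of like total count, and all 6 pairs stood above 1 in both sections. The median over all gene pairs with an expected number of at least 5 was 1.03 in section 1 and 0.978 in section 2. Of these pairs 56.0% and 43.9% stood above 1, and the upper quartiles were 1.22 and 1.11. Cyp7a1 with Abcc2 was found in 176 cells of section 1 (1.65 times the expected number, 95% interval 1.42 to 1.91) and 14 cells of section 2 (1.88, 1.03 to 3.16). Cyp7a1 with Abcb11 was found in 53 cells (1.57, 1.18 to 2.06) and 5 cells (2.04, 0.661 to 4.75). Cyp7a1 with Cyp8b1, the enzyme pair, was found in 152 cells (1.28, 1.08 to 1.49) and 28 cells (1.44, 0.959 to 2.09). The exporter pair, Abcc2 with Abcb11, was found in 142 cells (1.34, 1.13 to 1.58) and 7 cells (1.11, 0.447 to 2.29). Cyp8b1 stood at 1.12 and 1.19 with Abcc2 and at 1.15 and 1.24 with Abcb11, the pairs nearest to 1 in section 1 but not in section 2. In section 1, 93.8% of all such gene pairs lay at or below Cyp7a1 with Abcc2, and 92.1% Cyp7a1 with Abcb11. This share was 83.4% for the exporter pair, 79.5% for the enzyme pair, and 68.4% and 65.1% for Cyp8b1 with Abcb11 and Abcc2. In section 2 it was 98.3% for Cyp7a1 with Abcc2, 93.3% for the enzyme pair and 74.8% for the exporter pair. There it was 85.0% and 81.9% for Cyp8b1 with Abcb11 and Abcc2. All 4 members were found together in 23 and 1 cells, and none of them in 3118 and 9740 cells.

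**Figure D5:**
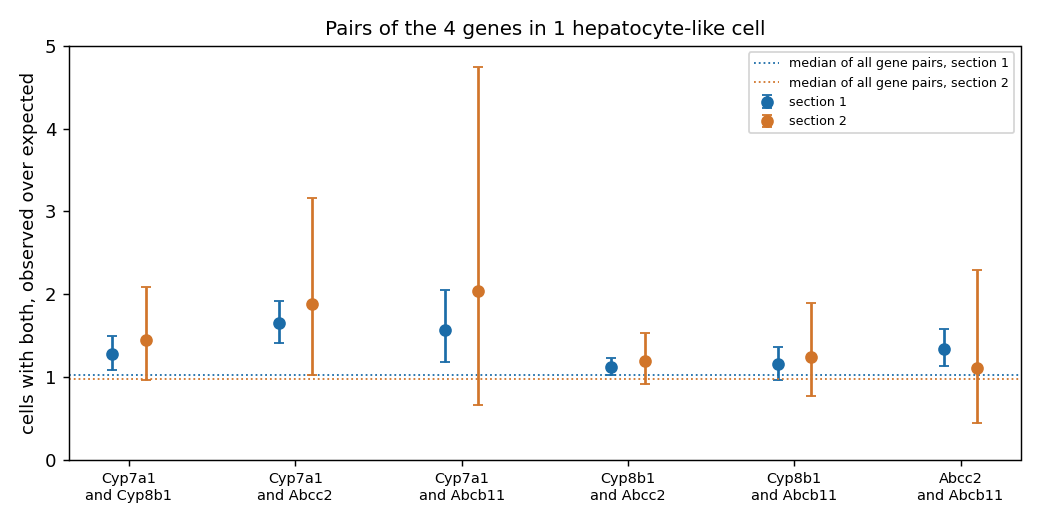
Observed over expected number of hepatocyte-like cells with both genes of a pair (vertical axis) by section; bars are exact Poisson 95% intervals and dotted lines the median over all gene pairs. All 12 points lie above 1, and Cyp7a1 with Abcc2 has intervals above 1 in both sections.

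Sums over cells with at least 1 count of a member were then tested against sums over cells with 0, that member left out. In cells with Cyp8b1, edgeR called 5.14% of 370 genes, and Cyp7a1 was among them: it stood at 18.2 per 10000 in cells with Cyp8b1, against 12.6 in cells without, in section 1, and at 10.4 against 6.35 in section 2 (log2 0.62, SE 0.17, edgeR adjusted p = 0.021). Cyp2e1 and Axin2 were also higher (log2 0.50 and 0.69, edgeR adjusted p = 0.033 and 0.012). The call of Cyp7a1 was lost under 7 alternatives, among them DESeq2 and cells of at least 20 counts (edgeR adjusted p = 0.12). Of the tested alternatives it was kept only without TMM and with a filter of 10 counts. In cells with Cyp7a1, Abcc2 stood at 108 (310 counts) against 61.4 without in section 1, and at 41.2 (16 counts) against 17.9 in section 2. With TMM 0% of 370 genes passed, 9 had an unadjusted p under 0.05 and DESeq2 called 0, and Abcc2 had a log2 of 0.78 with an SE of 0.52. With cells of at least 20 counts edgeR called 6.27% of 351 genes, and Abcc2 passed (log2 0.81, SE 0.14, edgeR adjusted p = 4.9e-06), as did Abcb11 (0.86, edgeR adjusted p = 0.0017). Section 2 adds little to either call: the cells with Cyp7a1 held 12 Abcc2 and 4 Abcb11 counts there, against 305 and 64 in section 1.

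Set the other way round, Cyp7a1 stood at 24.4 in cells with Abcc2, against 9.95 in cells without, in section 1, and at 13.8 against 6.48 in section 2. The difference was 1.26 (SE 0.36, edgeR adjusted p = 0.18), with 0% of 370 genes called, 18 at an unadjusted p under 0.05 and 0 by DESeq2. It passed with cells of at least 20 counts, where 6.27% of 351 genes were called (log2 1.25, edgeR adjusted p = 2.4e-04), and without TMM (1.24, edgeR adjusted p = 5.6e-05). Cells with Abcc2 held 209 and 10 Cyp7a1 counts in sections 1 and 2 in the former setting, and 214 and 14 in the latter. In cells with Abcb11, 0% of 370 genes were called, 16 had an unadjusted p under 0.05 and DESeq2 called 0. There Cyp7a1 stood at 23.2 (72 counts) against 13.5 in section 1 and 14.4 (5 counts) against 6.68 in section 2 (log2 0.74, SE 0.52, edgeR adjusted p = 0.99). Cells with Cyp7a1 were deeper than those without, with medians of 65 and 32 counts in section 1 and 22 and 17 in section 2.

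Cells around a cell with a member were compared with cells around hepatocyte-like cells without it. Within 50 µm of cells with Cyp7a1, other cells held 18.3 Cyp7a1 counts per 10000 in section 1, against 13.3 around the rest, and 7.12 against 6.09 in section 2. Within 25 µm the order was kept in section 1, at 14.8 against 12.5, but turned in section 2, at 4.69 against 5.61, where only 6 counts lay around such cells. Abcc2 around cells with Abcc2 stood at 66.8 against 56.3 in section 1 and 19.7 against 17.8 in section 2 within 50 µm, and at 63.1 against 53.2 and 19.4 against 17.6 within 25 µm. Abcb11 around cells with Abcb11 stood within 25 µm at 10.6 against 9.85 in section 1, and at 1.57 times the level around the rest in section 2, from 18 counts. Within 50 µm it stood at 12.6 against 10.3 in section 1 and 7.07 against 6.70 in section 2. Cyp8b1 around cells with Cyp8b1 stood at 1.10 and 1.11 times the level around the rest within 25 µm in sections 1 and 2. Within 50 µm these ratios were 1.08 and 1.09. The order was thus the same at both radii in both sections for Abcc2, Abcb11 and Cyp8b1, but not for Cyp7a1. Other members could be as high: within 25 µm in section 1, Cyp7a1 around cells with Abcc2 stood at 1.23 times, against 1.19 for Abcc2. Cyp8b1 around cells with Cyp7a1 stood at 1.18 times there, against 1.19 for Cyp7a1. In section 2 Cyp7a1 around cells with Abcb11 stood at 0.758 times within 25 µm. No level over all genes was set beside these values, and 1 cell can lie around several others. Whether a member clusters more with itself than with other members was not tested.

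Over squares of 500 µm, the member that varied most differed between the sections. Abcc2 ran between 30.4 and 105 per 10000 in the 41 squares of section 1, a variance of 3.31 times counting error, against a median of 1.46 over 308 genes. Cyp8b1, Cyp7a1 and Abcb11 stood at 1.57, 1.67 and 1.78 times there. In the 38 squares of section 2 Cyp8b1 ran between 18.8 and 94.4 per 10000, a variance of 2.11 times counting error, against a median of 1.29 and an upper quartile of 1.65 over 229 genes. Abcc2 stood at 1.29 times in section 2, Cyp7a1 at 1.44, and Abcb11 was the lowest of the 4.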

How the data were processed

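The authors deposited whole-number counts for 500 genes and 50 blanks in each segmented cell, per the file headers, with cell volumes, cell positions and transcript positions. The headers state no length unit; cell sizes were taken to be in µm. Software for decoding and segmentation: not given in the sources used here. Recounting transcripts by cell gave the deposited counts in all cells. No column was without a sample. Both sections form 1 group, and section served as the block because bins of 1 section share it. The test was edgeR 4.0.16 in R 4.3.3 (quasi-likelihood with TMM, genes of at least 50 counts, Benjamini-Hochberg threshold 0.05), with DESeq2 1.42.0 as an alternative; descriptions used Python 3.11.15 and scipy 1.17.1. The SE is the log2 difference over the square root of F, and intervals of differences are 1.96 SE. Alternatives covered minimum counts, cell rules, distances, rings, scaling, filters and block. On simulated counts, 2-fold changes were called in 84.9% to 85.9% of genes for the distance and ring tests, and in 41.6% to 82.7% for the tests of cells with a member. The simulation gave all genes the same fixed spread beyond counting error, which was not fitted to these data. The observed SE was 0.52 for Abcc2 in cells with Cyp7a1 and for Cyp7a1 in cells with Abcb11. The simulated shares can thus overstate what the tests call here. Named genes are the members, measured genes of pathway and zonation lists, and the 3 most alike genes per member; some of these are not reported here. The members and lists were chosen with earlier results of these data known.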

Additional observations from a re-analysis of the deposited data

How the results depend on the processing

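Of 280 tested values of the members under alternatives, 223 kept their direction and their side of the threshold, 21 newly passed, 7 no longer passed and 29 changed sign. The limits are depth, with a median of 17 counts per hepatocyte-like cell in section 2, few Cyp2f2-high starting cells, and 2 sections. The cause of each change below was not tested unless stated. The alternative of starting cells with at least 5 Cyp2f2 counts was not run, because section 2 has 0 such cells. Cells with 20 to 59 counts were added for the distance and ring tests after seeing the data.

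By distance from Glul-high cells, Cyp7a1 kept a positive value throughout and passed at 0.78 with cell volume as the offset. Cyp8b1, at 0.00, changed sign to -0.0036 at fixed distances, -0.022 in inner and middle rings, -0.064 with at least 20 counts, -0.032 with 20 to 59 counts and -0.066 within 300 µm. Abcc2 changed sign to 0.029 with all kept cells, 0.024 with 5 bins, 0.022 with a filter of 10 counts, 0.022 with no filter, 0.28 by volume, 0.0095 with starting cells of at least 2 counts, 0.17 under the stricter rule and 0.15 with 20 to 59 counts. Abcb11 changed sign to 0.017 with all kept cells, 0.034 with hepatocyte-like starting cells, 0.21 by volume, 0.16 with starting cells of at least 5 counts and 0.0027 under the stricter rule. None of these sign changes passed with edgeR. The 2 genes called became 0 with 5 bins, fixed distances, inner and middle rings, DESeq2 (1 gene at an unadjusted p under 0.05), at least 20 counts, starting cells of at least 5 counts and the stricter rule (9 to 40 genes at an unadjusted p under 0.05 in the edgeR settings), 4 without TMM, with a filter of 10 counts and with no filter, 5 with starting cells of at least 2 counts and 17 by volume. The count stayed at 2 with all kept cells and with hepatocyte-like starting cells, but neither Cyp2e1 (edgeR adjusted p = 0.077 and 0.22) nor Cyp2f2 (edgeR adjusted p = 0.39 and 0.16) was called there. With 20 to 59 counts Cyp2f2 was called and Cyp2e1 was not (edgeR adjusted p = 0.31), and within 300 µm both were.

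By distance from Cyp2f2-high cells, Cyp7a1 changed sign to 0.12 with all kept cells, 0.068 with 5 bins and 0.38 by volume. Cyp8b1 changed sign to -0.30 at fixed distances, -0.066 with starting cells of at least 2 counts and -0.29 within 300 µm. Abcc2 passed at -0.94 at fixed distances and -0.80 within 300 µm, and changed sign to 0.17 by volume, where the median of all genes was 0.51. The count of 0 genes became 4 with all kept cells and with at least 20 counts, 5 at fixed distances and within 300 µm, 2 with hepatocyte-like starting cells, 1 in inner and middle rings, with no filter and under the stricter rule, and 12 with starting cells of at least 2 counts.

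In the rings, Cyp7a1 changed sign to 0.030 with at least 20 counts. Cyp8b1 passed at 0.28 with at least 20 counts and changed sign to -0.055 without TMM and -0.084 under the stricter rule. Abcc2 passed at -0.57 without TMM, -0.36 by relative distance and -0.56 under the stricter rule, and Abcb11 at -0.53, -0.61 and -1.06 under the same 3 settings. The 66 genes called became 8 with DESeq2 (237 genes had no adjusted p), 11 under the stricter rule, where fewer cells and genes entered, 30 with 20 to 59 counts and 13 within 4 µm against beyond.

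In cells with Cyp7a1, Cyp8b1 passed at 0.49 without TMM. Abcc2 passed there at 0.83 without TMM, 0.81 with at least 20 counts and 0.94 with 20 to 59 counts, and Abcb11 at 0.91 without TMM and 0.86 with at least 20 counts. The count of 0 genes became 5 in inner and middle rings, 26 without TMM, 22 with at least 20 counts and 8 with 20 to 59 counts. In cells with Cyp8b1, Cyp7a1 no longer passed at 0.73 in inner and middle rings, 0.63 with DESeq2, 0.65 with no filter, 0.56 with at least 20 counts, 0.54 under the stricter rule and 0.55 with 20 to 59 counts. The 19 genes called became 7 in inner and middle rings, 34 without TMM, 9 with a filter of 10 counts, 1 with at least 20 counts, 4 under the stricter rule, and 0 with DESeq2 (2 genes at an unadjusted p under 0.05), with no filter (54 genes) and with 20 to 59 counts (20 genes). In cells with Abcc2, Cyp7a1 passed at 1.34 in inner and middle rings, 1.24 without TMM and 1.25 with at least 20 counts, and Abcb11 at 0.79 with at least 20 counts. The count of 0 genes became 5 in inner and middle rings, 10 without TMM, 22 with at least 20 counts and 2 under the stricter rule. In cells with Abcb11, Cyp7a1 passed at 0.81 without TMM and Cyp8b1 changed sign to -0.018 with at least 20 counts. The count of 0 genes became 20 without TMM, 1 under the stricter rule and 5 with 20 to 59 counts.

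With no replicate block, edgeR called 0 genes in every comparison, against 2 by distance from Glul-high cells, 66 in the rings and 19 in cells with Cyp8b1, where Cyp7a1 had 0.63 and no longer passed. Unadjusted p under 0.05 then held for 1, 2 and 2 genes.

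With 1 section left out there is no test, and values are per total count with 0.5 counts added and no TMM. By distance from Glul-high cells they ran from 0.31 to 0.75 for Cyp7a1, 4.1e-05 to 0.052 for Cyp8b1, -0.037 to 0.029 for Abcc2 and -0.22 to 0.12 for Abcb11. By distance from Cyp2f2-high cells they ran from -0.40 to 0.34 for Cyp7a1, 0.029 to 0.41 for Cyp8b1, -0.61 to 0.11 for Abcc2 and -0.79 to -0.023 for Abcb11. In the rings they ran from -1.30 to 0.081 for Cyp7a1, -0.19 to 0.057 for Cyp8b1, -0.69 to -0.52 for Abcc2 and -0.66 to -0.28 for Abcb11. Between cells with and without a member, all 12 values stayed positive in each section.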
